A study of Mus musculus with 8 samples.

Results

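The miR-30 family was measured in callus of the mouse femur by 7 of the 1079 murine miRs on the array. The members are the guide arms mmu-miR-30a-5p, mmu-miR-30b-5p, mmu-miR-30c-5p, mmu-miR-30d-5p and mmu-miR-30e-5p and the opposite arms mmu-miR-30a-3p and mmu-miR-30e-3p, written without the species prefix below. They were chosen by their names in the scanner files and not by their values, though with earlier results of these data known. All 7 were detected on all 8 arrays, as were 310 murine miRs in total. The callus came from CD-1 mice of both sexes aged 9 to 14 weeks, 7 days after an osteotomy of the femur that was stabilized with an intramedullary pin and a clip. In the Union group (P17 to P20, n = 4) the gap measured 0.25 mm. In the Non-union group (P13 to P16, n = 4) it measured 1.8 mm, and the periosteum beside the gap was stripped as well, so that the effects of the gap and of the stripping cannot be told apart. Day 7 precedes bridging of the gap, and the group names stand for the outcome the model is known to reach later. Each animal gave 1 array with 1 dye (Cy3). All arrays shared a slide, with the Non-union arrays in its first row and the Union arrays in its second, so that row and group cannot be told apart.

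MiRs are short RNAs that guide the silencing machinery to messenger RNAs, and bases 2 to 8 from the 5′ end, the seed, decide most of what they bind. A precursor hairpin can release a mature miR from either arm, and the arm that is loaded more often is called the guide. The miR-30 family is found in most tissues. It is known to dampen osteoblast differentiation through Runx2 and Smad1, factors that drive bone formation, and to take part in the formation of fat cells, in autophagy and in heart and skeletal muscle.

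The mature sequences are shown because members that share a seed can bind the same sites, and members that differ by few bases are hard to separate on an array. They were taken from the RefSeq annotation of GRCm38.p6, which matched 5 of the 7 members, and capitals mark the seed.
miR-30a-5p: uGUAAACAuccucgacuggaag
miR-30e-5p: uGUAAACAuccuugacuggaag
miR-30c-5p: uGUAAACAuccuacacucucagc
miR-30a-3p: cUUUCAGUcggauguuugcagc
miR-30e-3p: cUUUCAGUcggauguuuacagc
The 3 guide arms share the seed GUAAACA, and both 3p arms share another one, UUUCAGU. MiR-30a-5p and miR-30e-5p have the same length and differ by a single substitution, C13U, counted from 1 at the 5′ end with the base of miR-30a-5p first. MiR-30c-5p differs from miR-30a-5p at 5 of the 22 bases compared and is 1 base longer. The 3p arms of miR-30a and miR-30e also differ by a single substitution, G18A. The only other murine miR of the table with the guide seed on the array was miR-384-5p (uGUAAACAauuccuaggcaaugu), which was detected on no array. MiR-30b-5p and miR-30d-5p are the other members.

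The members come from 3 places in the genome. Mir30a lies at chr1:23272269-23272339 and Mir30c-2 at chr1:23291701-23291784, both on the plus strand. Mir30e (chr4:120772606-120772697) and Mir30c-1 (chr4:120769534-120769622) lie on the minus strand within the gene Nfyc, which encodes a subunit of a CCAAT-binding transcription factor. Mir30b and Mir30d are on chromosome 15, with no annotated gene wholly between them. All positions are those of GRCm38.p6. MiR-30c-5p is made from both Mir30c-1 and Mir30c-2 with the same sequence, so that the array cannot assign it to one of them.

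The signal of a miR is the background-corrected intensity that the scanner software merged over its 40 spots. It is given here on the log2 scale after quantile normalization. Quantile normalization gives miRs of equal rank on 2 arrays the same value. Levels of different miRs depend on their probes and are not compared. Of the 2240 spots of the members over all arrays, none was saturated. The merged signals of the guide arms were at least 106.0 units, and those of the 3p arms at least 13, against a lowest detected signal of between 2.16 and 2.39 units per array. The error that the software assigned to a member's signal was 6.50% to 9.20% of the signal for the guide arms and 8.10% to 15.3% for the 3p arms.

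All 7 members had a lower mean in the Non-union group than in the Union group, by 0.11 to 0.38 on the log2 scale, and none of these differences passed a test. No member had an adjusted p under 0.05 in limma, against 0.323% of the 310 miRs tested, and none had an unadjusted p under 0.05, against 13.9% (9.68% higher and 4.19% lower in the Non-union group). In the exact permutation test none reached 0.05 either. The groups overlapped in every member, while they did not overlap in 3.87% of all tested miRs. No member differed by a fold of 2 or more, as 8.39% of the tested miRs did. A difference below 0 was found in 40.6% of the tested miRs and in 7 of the 7 members. The members share sequence and arrays and are not independent of each other, so that this count was not tested. The median difference was -0.22 over the members and 0.15 over all tested miRs.

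MiR-30c-5p, a guide arm known to target Runx2, had the largest difference of the members. Its normalized log2 signal was 7.84, 8.12, 7.70 and 7.72 on P13 to P16 of the Non-union group. It was 8.67, 8.19, 8.01 and 8.03 on P17 to P20 of the Union group. Only P14 of the Non-union group reached into the range of the Union arrays, and P17 lay above all others. Non-union callus averaged 7.85 ± 0.19 (SD, n = 4) and Union callus 8.23 ± 0.31 (SD, n = 4). The Non-union minus Union difference of -0.38 had an SE of 0.21 and a 95% interval of -0.86 to 0.11, with an adjusted p of 0.378 in limma. A difference of this size between log2 means stands for a Union signal 1.30 times the Non-union signal. The exact permutation test (two-sided throughout) gave p = 0.0857. With 4 arrays in each group this test cannot go below 0.0286.

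MiR-30a-5p varied most between arrays among the guide arms. It measured 8.43, 8.99, 8.58 and 8.30 on P13 to P16 and 9.57, 8.96, 8.73 and 8.43 on P17 to P20. The Union group thus held both the highest value, on P17, and a value as low as that of P13, on P20. Non-union callus averaged 8.58 ± 0.30 (SD, n = 4) and Union callus 8.92 ± 0.48 (SD, n = 4). Their difference of -0.35 had an SE of 0.28 and a 95% interval of -0.98 to 0.28 (adjusted p = 0.422 in limma, p = 0.314 by exact permutation). Without P17 it was -0.14.

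MiR-30b-5p measured 8.47, 8.55, 8.28 and 8.25 on P13 to P16, and 8.88, 8.51, 8.47 and 8.58 on P17 to P20. Its lowest arrays were P15 and P16 of the Non-union group, while P13 and P14 lay among the Union arrays. With means of 8.39 ± 0.15 and 8.61 ± 0.18 (SD, n = 4 each) it differed by -0.22, with an SE of 0.18 and a 95% interval of -0.63 to 0.19 (adjusted p = 0.439 in limma, p = 0.143 by exact permutation).

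MiR-30d-5p, from the same place in the genome as miR-30b-5p, had the smallest difference. It measured 7.42, 7.38, 7.31 and 7.28 on P13 to P16, a range of little width, and 7.42, 7.20, 7.39 and 7.83 on P17 to P20. P20 alone lay above the Non-union arrays, and P18 lay below them. From 7.35 ± 0.06 to 7.46 ± 0.27 (SD, n = 4 each) the difference came to -0.11, with an SE of 0.19 and a 95% interval of -0.54 to 0.32 (adjusted p = 0.700 in limma, p = 0.600 by exact permutation). Without P20 it was 0.01.

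MiR-30e-5p, a single base away from miR-30a-5p, measured 8.03, 8.15, 8.03 and 7.89 on P13 to P16, and 8.34, 8.03, 8.10 and 8.47 on P17 to P20. P17 and P20 lay above all Non-union arrays, and P18 and P19 lay within them. Group means were 8.03 ± 0.10 and 8.24 ± 0.21 (SD, n = 4 each), apart by -0.21, with an SE of 0.18 and a 95% interval of -0.62 to 0.20 (adjusted p = 0.448 in limma, p = 0.200 by exact permutation).

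The signals of both 3p arms lay closer to the detection limit. MiR-30a-3p measured 4.43, 5.09, 4.49 and 4.47 on P13 to P16, and 5.54, 4.83, 4.71 and 4.43 on P17 to P20. As for its guide arm, P17 was highest, P14 was the highest Non-union array, and P20 was as low as P13. Means of 4.62 ± 0.31 and 4.88 ± 0.47 (SD, n = 4 each) gave a difference of -0.26, with an SE of 0.28 and a 95% interval of -0.88 to 0.37 (adjusted p = 0.546 in limma, p = 0.514 by exact permutation). Without P17 it was -0.04, and with normexp background correction -0.11. MiR-30e-3p measured 4.60, 4.91, 4.62 and 4.17 on P13 to P16, and 5.06, 4.67, 4.69 and 4.74 on P17 to P20. P16 was low and P17 high, with P14 between P17 and the other Union arrays. Its means, 4.58 ± 0.30 and 4.79 ± 0.18 (SD, n = 4 each), differed by -0.22, with an SE of 0.21 and a 95% interval of -0.70 to 0.26 (adjusted p = 0.510 in limma, p = 0.314 by exact permutation). On P16 the merged signal of miR-30e-3p, 12.95 units, held only the brighter of its 2 probes, whose sum was 16.5, whereas on every other array and for the other members it matched the sum of all probes within 1%. Without P16 the difference of miR-30e-3p was -0.08.

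**Figure D1:**
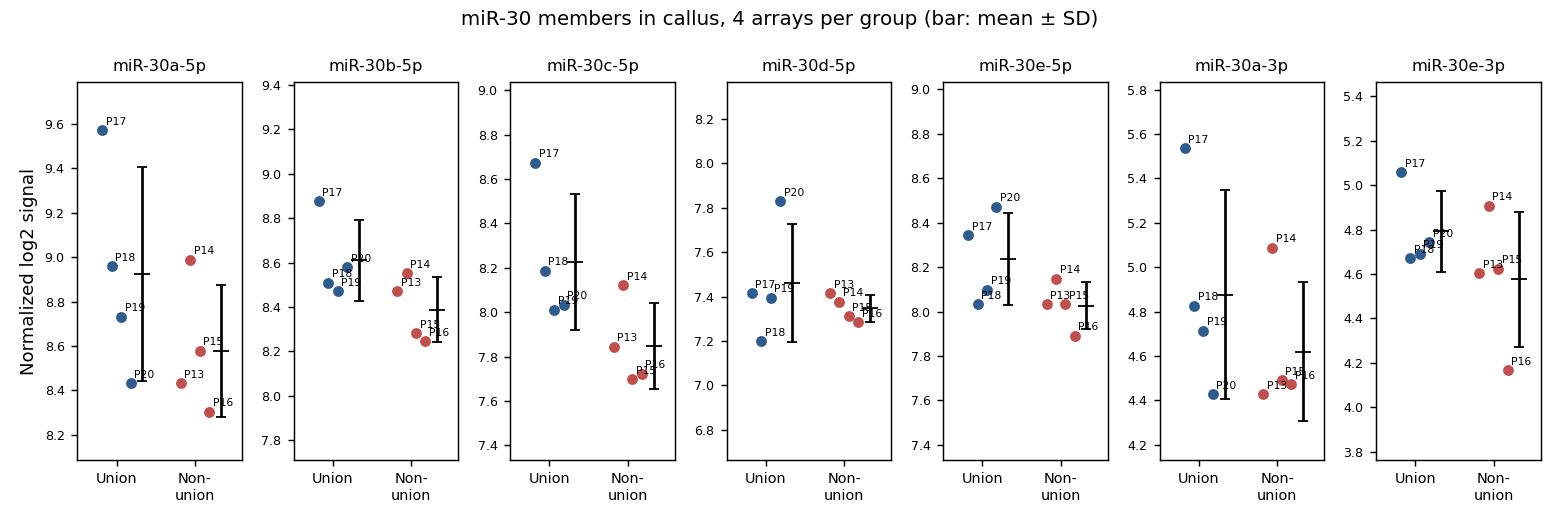
Normalized log2 signal of each miR-30 member on the 8 arrays. Points are arrays labelled by specimen, and the black bars show the mean ± SD of the 4 arrays of a group. Every panel spans the same height of the log2 scale, the groups overlap in all 7 panels, and P17 is the highest array for 5 of the members.

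None of the 95% intervals of the 7 differences reached a fold of 2 in either direction. They do allow the Union group to be up to 1.97-fold higher for miR-30a-5p and 1.46-fold higher for miR-30d-5p. In 8 of 22 settings, the reported one included, the interval of at least 1 member did reach a fold of 2. This was so for 4 members without normalization, with a lowest bound of -1.40, for 1 without a filter on detection, and for 1 to 3 when P13, P14, P15, P18, P19 or P20 was left out. The median SD of the members within the groups was 0.25 on the log2 scale, against 0.44 over all tested miRs.

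Each member was read by 2 or 3 probes, and all 15 probes gave a lower mean in the Non-union group. With each array scaled to its 75th percentile, the differences of single probes ran from -0.40 for a probe of miR-30c-5p to -0.17 for one of miR-30b-5p. The probes of miR-30a-5p gave -0.33 to -0.27, and those of miR-30d-5p -0.21 to -0.19. The 2 probes of miR-30b-5p lay farthest apart, at -0.31 and -0.17. Probes of one miR were hybridized with the same RNA and are no replicates of the groups.

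**Figure D2:**
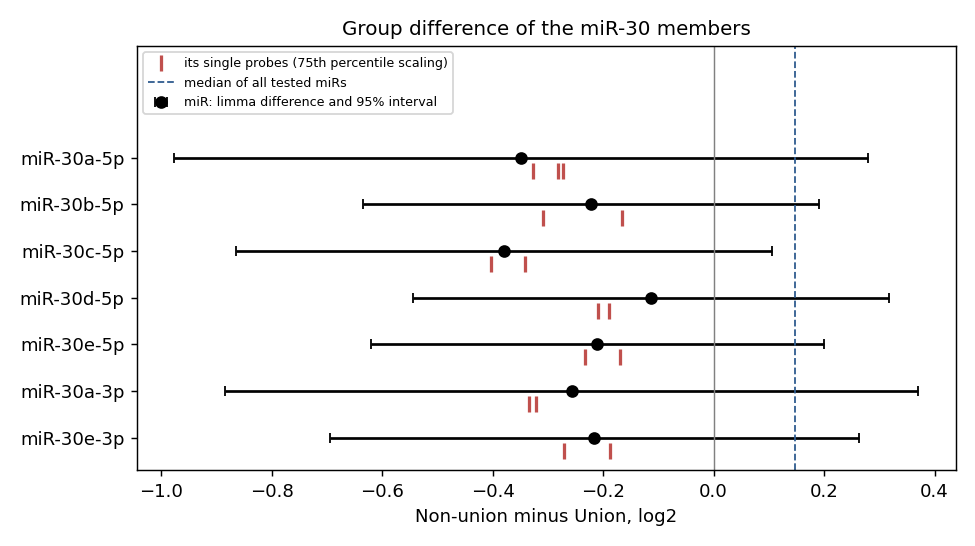
Non-union minus Union difference on the log2 scale for each miR-30 member, with the 95% interval of limma (black) and the differences of its single probes after 75th percentile scaling (red ticks). All points lie to the left of 0 and all intervals include 0. The dashed line marks the median difference of all tested miRs, 0.15.

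After normalization the members did not all peak on the same array, whereas the merged signal of all 7 was highest on P17 and lowest on P16. The summed merged signal of all murine miRs was likewise highest on P17 (360063 units) and lowest on P16 (183589 units). That order of the merged signals is thus not particular to the family. On P17 of the Union group all 7 lay above their own mean over the 8 arrays, by 0.82 for miR-30a-5p, 0.64 for miR-30c-5p, 0.38 for miR-30b-5p and 0.21 for miR-30e-5p, but by 0.01 for miR-30d-5p. On P20 of the same group miR-30d-5p lay 0.43 and miR-30e-5p 0.34 above their means, whereas the deviation was -0.32 for both arms of miR-30a. P16 of the Non-union group lay below the mean for all 7 members, by 0.12 for miR-30d-5p and up to 0.52 for miR-30e-3p. P15 was also below the mean for every member. P19 was close to the mean for all of them, between -0.03 and 0.01.

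**Figure D3:**
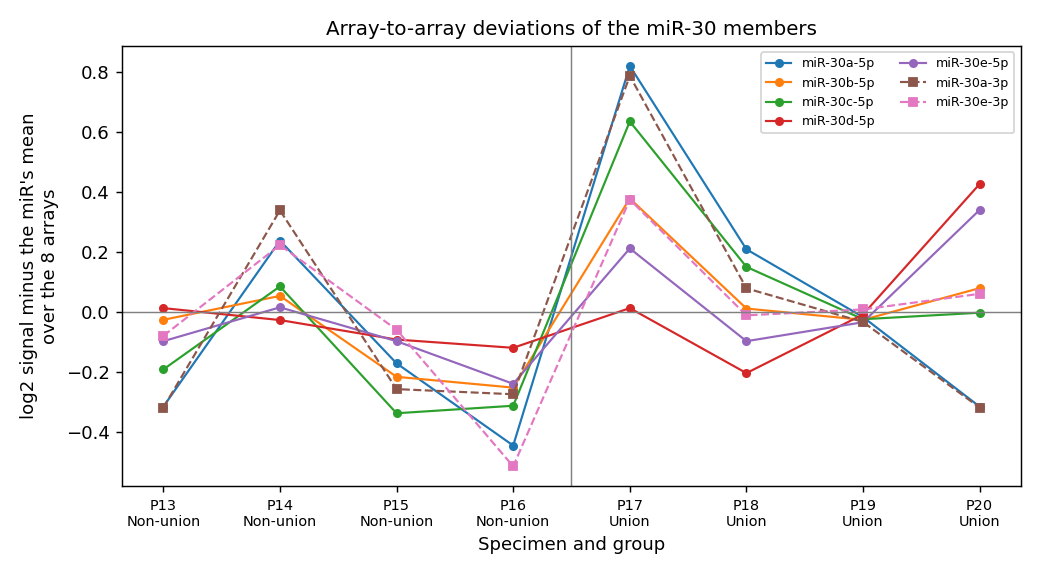
Deviation of the normalized log2 signal of each miR-30 member from its own mean over the 8 arrays, by specimen. Solid lines are 5p arms and dashed lines 3p arms, and the lines only join the points of one miR, since specimens have no order. Both arms of miR-30a and miR-30c-5p peak on P17, while miR-30d-5p and miR-30e-5p peak on P20.

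Ratios of merged signals within an array do not depend on the scaling, and only their change between arrays can be read. The ratio of miR-30d-5p to miR-30e-5p stayed between 0.561 and 0.631 on the 8 arrays, so that its highest value was 1.13 times its lowest. These 2 guide arms come from different chromosomes. The ratio of miR-30a-5p to miR-30e-5p was 1.32, 1.70, 1.38 and 1.29 on P13 to P16 and 2.22, 1.65, 1.49 and 0.991 on P17 to P20. It changed 2.24-fold between P20 and P17, more than the error of the signals. How much of either miR binds to the probes of the other was not tested. For miR-30a-5p and miR-30d-5p the ratio changed 2.52-fold. The ratio of miR-30b-5p to miR-30d-5p, which lie next to each other in the genome, changed 1.40-fold, from 1.74 on P20 to 2.44 on P17.

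The arms of miR-30a varied together over the arrays. Of the 43 precursors with both arms detected on all arrays, none had a difference between its arms that varied less over the 8 arrays than that of miR-30a. The 5p minus 3p difference of miR-30a ranged from 3.83 to 4.13 on the log2 scale, a span of 0.30, where the median span over the 43 precursors was 1.01. For miR-30e the span was 0.49, from 3.24 on P14 to 3.73 on P20. The size of such a difference is set in part by the probes, and only its change is read here. The balance of the arms passed no test between the groups. For miR-30a it averaged 3.96 ± 0.11 (SD, n = 4) in Non-union and 4.05 ± 0.06 (SD, n = 4) in Union callus. This difference of -0.09 had an SE of 0.10 and a 95% interval of -0.33 to 0.15 (adjusted p = 0.675 in limma over the 43 precursors, p = 0.229 by exact permutation), and its sign turned without normalization or with 75th percentile scaling (0.04). For miR-30e both groups averaged 3.45 ± 0.20 (SD, n = 4 each). Their difference was 0.01, with an SE of 0.15 and a 95% interval of -0.35 to 0.36 (adjusted p = 0.994 in limma, p = 0.943 by exact permutation). The sign of this difference turned under 7 of 21 alternative settings, among them the fit without P16 (-0.09). None of the 43 precursors had an adjusted p under 0.05, and 11.6% had an unadjusted p under 0.05, with neither miR-30a nor miR-30e among them.

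**Figure D4:**
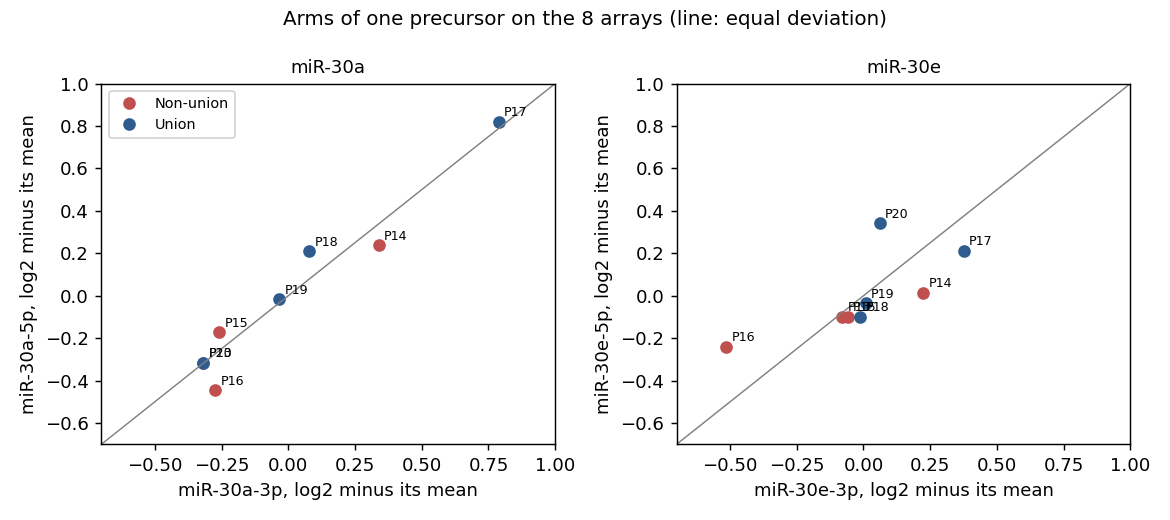
Deviation of the 5p arm (vertical axis) against that of the 3p arm (horizontal axis) of miR-30a (left) and miR-30e (right), each as log2 signal minus its mean over the 8 arrays. Points are arrays coloured by group, and the line marks equal deviation. The arrays lie close to the line for miR-30a and scatter more widely for miR-30e, with P16 and P20 above the line and P14 and P17 below it.

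The 4 other arms of the miR-30 precursors on the array were close to the detection limit, and none was detected on every array. MiR-30b-3p was detected on 7 arrays with merged signals of 2.16 to 6.03 units, and it was not detected on P16. MiR-30c-2-3p was detected on 6 arrays with 4.84 to 10.5 units and was highest on P17. MiR-30c-1-3p was detected on 4 arrays, P13, P14, P17 and P18, with 2.64 to 5.19 units. These 2 arms come from the separate genes of miR-30c-5p, and each was found in both groups. MiR-30d-3p was detected on P20 only, at 2.46 units. No difference between the groups is given for these arms, since undetected values are a floor.

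Callus is a mixed tissue, and in bulk RNA fewer cells of a type and less RNA per cell cannot be told apart. The cartilage list held the arms of miR-140 and miR-455 and the list of skeletal mesenchyme those of miR-199a and miR-214. All were detected on every array, 4 of 4 and 4 of 4. All 8 had an unadjusted limma p under 0.05 and were higher in the Non-union group, against 9.68% of all tested miRs. The median differences were 1.43 and 0.88 on the log2 scale, and none had an adjusted p under 0.05. These lists were chosen with earlier results of these data known, so that the count is no independent support. The mean normalized log2 level of the cartilage list was 6.47 to 8.69 in the Non-union group and 5.67 to 6.93 in the Union group. This level was lowest on P17, while the summed merged signal of the list was lowest on P18. Of the erythroid list, miR-451 and both arms of miR-144 were measured. The summed merged signal of these 3 ranged from 2960 to 9469 units in the Non-union group and from 3050 to 16676 in the Union group. Both this sum and the mean normalized log2 level of the 3 were highest on P17 (level 9.19) and next highest on P14 (8.61). These were the 2 arrays on which both arms of miR-30a were highest. None of the 3 had an unadjusted limma p under 0.05 (median difference -0.30). The myeloid and leukocyte list held 3 detected miRs, miR-223-3p and both arms of miR-142, and miR-223-5p was detected on no array. Its summed merged signal was 3534 to 4985 units in the Non-union group and 5376 to 20398 in the Union group. This sum is not normalized. After normalization the mean log2 level of the 3 was 9.528 to 10.115 in the Non-union group and 10.014 to 11.997 in the Union group. The groups thus overlapped in this level. Of the 3 miRs they were apart only in miR-223-3p, as they were in 3.87% of all tested miRs. MiR-223-3p, the marker of neutrophils in that list, differed by -1.13 on the log2 scale (limma adjusted p = 0.346) and was among the 4.19% of tested miRs with an unadjusted p under 0.05 that were lower in the Non-union group. The highest sum was that of P20, where miR-30d-5p and miR-30e-5p were highest after normalization, while their merged signals were highest on P17. The endothelial list, both arms of miR-126, also had its highest mean normalized log2 level on P20 (9.04). Of the muscle list 4 of 6 were detected on all arrays, 3 of them lower in the Non-union group (median difference -0.30), and none had an unadjusted limma p under 0.05. The summed merged signal of the list was 14855 to 62359 units in the Non-union group and 36945 to 95817 in the Union group. As for red blood cells this sum, which is not normalized, was highest on P17 and next highest on P14, and it was lowest on P16. After normalization the mean log2 level of the 4 detected muscle miRs was highest on P14 (13.61), next on P17 (13.54) and lowest on P16 (12.33). The part of these cell types in the levels of the miR-30 members was not tested.

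The miRs whose profile over the 8 arrays was most like the mean of the guide arms were miR-29c-3p (Pearson r = 0.94), miR-101c (0.93), miR-10b-5p (0.93), miR-101a-3p (0.90) and miR-3470a (0.84). They were the first 5 of 310 miRs compared that were neither members nor on a list. Without P16 and P17, the 2 arrays farthest from the median of the mean profile, r was 0.79, 0.85, 0.82, 0.49 and 0.72. These values describe likeness over n = 8 arrays that share slide and normalization. MiR-29c-3p, which targets collagens, was lowest on P16 (8.76) and highest on P17 (10.55), with a group difference of -0.69 (adjusted p = 0.378 in limma). MiR-3470a differed by -0.93 (adjusted p = 0.288 in limma) and miR-10b-5p by -0.42 (adjusted p = 0.346). Both were among the 4.19% of tested miRs that had an unadjusted limma p under 0.05 and were lower in the Non-union group. For miR-101c and miR-101a-3p the differences were -0.29 and -0.16, with neither under 0.05. The 5 were picked for likeness to a profile that was lower in the Non-union group, so that lower values in them are partly built in. Of the members, miR-30b-5p and miR-30c-5p had r of 0.98 and 0.96 with the mean of which they are a part, and miR-30d-5p had 0.34. MiR-144-3p of the erythroid list followed at 0.84 and miR-1a-3p of the muscle list at 0.83 (0.65 and 0.46 without P16 and P17). Lower r was found for miR-144-5p (0.71) and miR-451 (0.59), and for miR-133a-3p (0.70), miR-133b-3p (0.52) and miR-206-3p (-0.30) of the muscle list. MiR-455-3p of cartilage lay toward the other end with -0.86.

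Other miRs known to target Runx2, as miR-30c-5p does, were looked up beside the family. Of 10 on the list, 5 were detected on all arrays, miR-204-5p was detected on 7, and miR-135a-5p, miR-137, miR-205-5p and miR-217-5p on none. The median difference of the 5 was 0.24, with 3 higher and 2 lower in the Non-union group, and none had an unadjusted limma p under 0.05. The differences were 0.55 (SE 0.33) for miR-34c-5p, 0.33 (SE 0.36) for miR-218-5p, -0.52 (SE 0.36) for miR-133a-3p, which is also a muscle miR, and -0.08 (SE 0.51) for miR-338-3p. The groups did not overlap for miR-23a-3p, as for 3.87% of all tested miRs. It measured 11.47, 11.36, 11.47 and 11.32 on P13 to P16 and 11.10, 11.10, 11.23 and 11.23 on P17 to P20. It differed by 0.24 with an SE of 0.16 (adjusted p = 0.387 in limma, p = 0.0286 by exact permutation). That exact p is the lowest possible and follows from the lack of overlap alone. The direction was opposite to that of miR-30c-5p, whose groups overlapped.

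**Figure D5:**
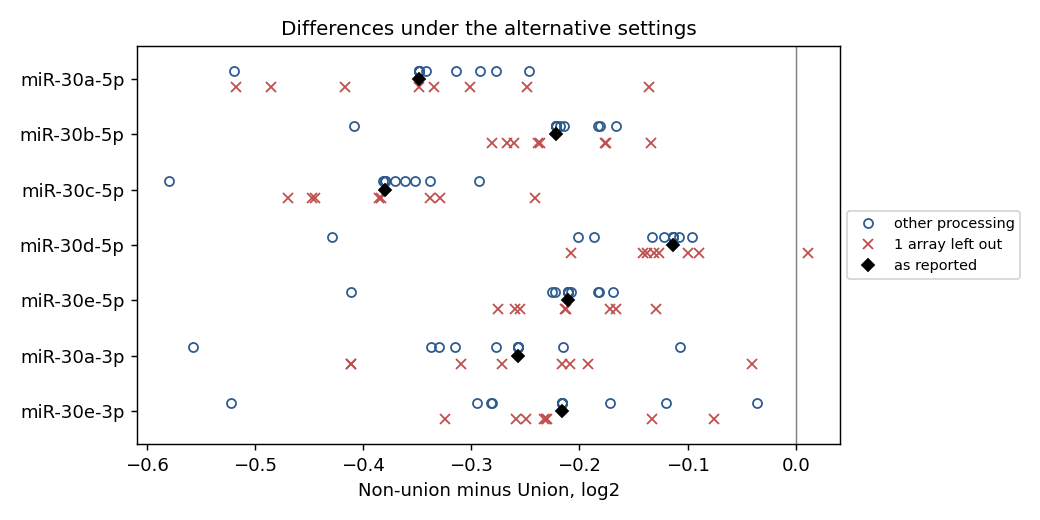
Non-union minus Union difference of each miR-30 member as reported (diamonds), under the other processing settings (open circles) and with 1 array left out (crosses), on the log2 scale. All values but one lie below 0. The exception is miR-30d-5p without P20, at 0.01.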

How the data were processed

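The deposited scanner files hold, per the file headers, linear intensity values after background subtraction from Agilent Feature Extraction 10.10.1.1, among them the merged signal of each miR and its detection call on that array. Undetected miRs carry 0.1. The authors also deposited a table of log2 values, described in their methods as log2 transformed and quantile normalized. Each of its columns has a median of 2.49 and correlated most with its own array.

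The merged signals were put on the log2 scale and quantile normalized over 1079 murine miRs. The 310 detected on all arrays were compared as Non-union minus Union (limma 3.58.1 in R 4.3.3, lmFit and eBayes, two-sided, Benjamini-Hochberg adjustment). Single values were permuted over all 70 arrangements. Arm balances were fitted over 43 precursors. Python 3.11.15, numpy 2.4.6, pandas 2.3.3, scipy 1.17.1 and matplotlib 3.10.9 were used. The fit was tested on simulated data. For normexp (offset 50), which used median spot signals, and for mean processed signals, outlier spots were left out. The authors' significance level is an unadjusted p of 0.05. Arrays have no depth, and their number limits the precision. Samples were grouped by their labels.

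The members and lists were chosen with earlier results of these data known. Named were the 7 members, the other arms of their precursors, miRs with the same seed, the fixed lists (cartilage, skeletal mesenchyme, skeletal muscle, red blood cells, myeloid cells and leukocytes, endothelium, Runx2) and the 5 miRs most like the mean of the guide arms. Of the red blood cell list, 3 of 4 names were matched. The 2 endothelial miRs, both arms of miR-126, had a median difference of -0.31, and neither passed.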

Additional observations from a re-analysis of the deposited data

Results flagged for a closer look

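One value of the members and their arm balances lay apart from its group, out of 18 groups of 4 arrays examined with Dixon's ratio, where chance marks about 1 in 20. It was miR-30a-3p on P14 of the Non-union group, with a normalized log2 signal of 5.09 against 4.43 to 4.49 on the other 3 arrays of that group. Its Dixon ratio was 0.906, above the 95% critical value for 4 arrays.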

How the results depend on the processing

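No member of the family and neither arm balance had an unadjusted p under 0.05 under any of the 21 alternatives. The other arms of the precursors were not tested under most of them, since few passed the filter. The difference of miR-30a-5p ranged from -0.52 to -0.14 and that of miR-30c-5p from -0.58 to -0.24. The direction changed for 1 member, miR-30d-5p, which ranged from -0.43 without normalization to 0.0116 without P20, and with single arrays left out from -0.21 (without P18) to that value. Without P17 the difference was -0.13 for miR-30b-5p, -0.24 for miR-30c-5p and -0.04 for miR-30a-3p. With normexp it was -0.04 for miR-30e-3p. Relative to the median of all tested miRs, which was 0.15 as reported and -0.10 without normalization, every member stayed lower under every alternative, with a smallest gap of -0.0673. The difference in arm balance of miR-30a was 0.0378 with either 75th percentile scaling or no normalization. That of miR-30e was -0.11 with mean processed signals, -0.15 with normexp and -0.0364 in the authors' table, and leaving out single arrays gave -0.0912 to 0.10. Of the other Runx2-targeting miRs, 1 had an unadjusted p under 0.05 with normexp, without a filter and in the exact permutation test, miR-23a-3p each time. In the exact permutation test this follows from its groups not overlapping. With 1 array left out the count was 0 to 2, the latter without P20 (miR-34c-5p and miR-218-5p). None of these miRs had an adjusted p under 0.05 in those settings. The share of all tested miRs with an unadjusted limma p under 0.05 is given for the reported setting only (13.9%). These counts can therefore not be set against the share in their own setting. No paired analysis was possible because the groups share no specimen numbers. Slide and scan could not be fitted as a block, since there was 1 of each. Signals near the detection limit restrict the other arms of the precursors to a list of detections.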
